A study of Mus musculus with 12 samples.

Results

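The comparison described here set 3 arrays of CD8 single-positive (CD8SP) thymocytes against 3 arrays of CD4+CD8+ (DP) thymocytes, 6 of the 12 arrays of a survey of mouse thymocyte subsets, across 18193 genes. The arrays were chosen by their titles, and probe sets carrying exactly 1 gene symbol in the platform annotation were averaged per gene. Both populations were sorted by flow cytometry from C57BL/6 mice, were neither cultured nor treated, and gave total RNA by Trizol extraction for hybridisation to Affymetrix mouse expression arrays. CD8SP cells were gated as CD4-negative, CD8α-positive and TCRβ-high, whereas DP cells were gated on CD4 and CD8α alone, so the DP gate set no TCRβ limit. The CD4 single-positive (CD4SP) cells, gated as CD4-positive, CD8α-negative and TCRβ-high, are used below to test whether a change from DP differs between the single-positive subsets. The labels give no age, sex or number of mice, and do not say that the 3 arrays of a group came from separate animals, so the p-values reflect only the scatter among these arrays, which may be technical.

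In the thymus, DP cells rearrange the T cell receptor (TCR) α locus with the RAG recombinase and are then selected on peptide and MHC. Cells selected on MHC class I mature as CD8SP cells: they silence Cd4 through the transcription factor Runx3, end recombination, gain a survival programme that depends on interleukin-7, take up the cytotoxic lineage programme, and leave the thymus along gradients of chemokines and sphingosine-1-phosphate.

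Values are on a log2 scale on which the mean of DP is 0 for every probe set, as centred in the deposited table, so absolute levels cannot be read. Differences are given as CD8SP minus DP in log2 ± standard error from limma, with 3 arrays in each group. A gene was called at a Benjamini-Hochberg adjusted p under 0.05; the words "rose" and "fell" are kept for called genes. In bulk RNA, fewer cells expressing a gene and less RNA per cell cannot be told apart. CD8SP replicate 1 stood apart from the other arrays. Its hybridisation control spots averaged 0.929, against -0.119 and 0.122 on CD8SP replicates 2 and 3, its Gapdh control had the largest 3′ minus 5′ difference (0.371), and it had the lowest array weight (0.276). Among called genes that differed by at least 2-fold, CD8SP replicate 1 was the nearest to DP of the CD8SP arrays for 946, or 54.4%, against 23% and 22.6% for replicates 2 and 3. Counts of list members called against DP are therefore given with and without it where they differ.

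The sort genes were read first. Cd4, which encodes the coreceptor for MHC class II, lay at -8.39, -9.20 and -9.12 on the CD8SP arrays and between -0.16 and 0.16 on the DP arrays. The groups did not overlap, as for 48.6% of all genes, and Cd4 fell by 8.90 ± 0.50 (adjusted p = 2.75e-07), a 479-fold difference. Cd8a, the gene for the α chain of the class I coreceptor, lay at -0.43, -0.37 and -0.20 in CD8SP (-0.33 ± 0.38, adjusted p = 0.526), with its 5 probe sets between -0.73 and 0.38. Cd8b1, its β chain, lay at -0.81, -0.49 and -0.52 (-0.61 ± 0.29, adjusted p = 0.125). Neither CD8 gene was called, although for both the CD8SP arrays lay below each DP array, and both were called when the spread was taken from the CD8SP and DP arrays alone (adjusted p = 0.0467 and 0.00881). In CD4SP the same CD8 genes lay lower, and CD8SP minus CD4SP was 6.20 ± 0.38 for Cd8a and 4.83 ± 0.29 for Cd8b1 (adjusted p = 5.68e-06 for both).

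CD8SP and DP thymocytes differed across much of the measured transcriptome. Of 18193 genes, 7103 were called (39.0%): 3307 rose (18.2%) and 3796 fell (20.9%). At least 2-fold differences were called for 1740 genes (9.56%), 904 upward (4.97%) and 836 downward (4.60%), and at least 16-fold for 67 upward and 32 downward. Without CD8SP replicate 1, 6968 genes were called (38.3%), 3406 of them higher (18.7%) and 3562 lower (19.6%). The 2 sets of calls shared 6219 genes, all in the same direction, while 884 were called with that array alone included and 749 with it left out. The median difference over all genes was 0.0018. Quantile normalization, which forces the narrow distribution of the DP-centred arrays onto that of the other subsets, left 1235 genes higher and 1525 lower. When each gene was read from its highest-mean probe set alone, 2483 genes were lower, and 61.7% of called genes were higher, against 46.6% here. With DP at 0 for every probe set, that choice takes the probe set lying highest above DP in the other subsets. It thus favours higher genes by construction.

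**Figure D1:**
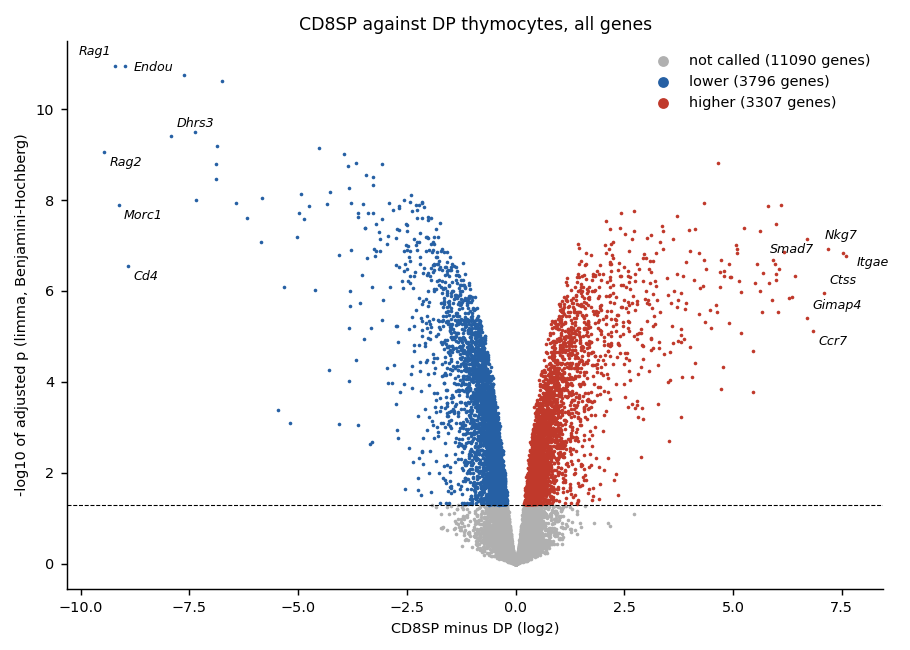
Volcano plot of CD8SP minus DP for 18193 genes, with the log2 difference on the horizontal axis and -log10 of the limma adjusted p on the vertical axis; the dashed line marks an adjusted p of 0.05, red points are the 3307 genes called higher and blue points the 3796 called lower. The falls of Rag2, Rag1, Morc1, Endou and Cd4 reach further from 0 than any rise, of which Itgae and Nkg7 are the largest.

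The largest falls were of Rag2 and Rag1, which encode the recombinase, together with Morc1, Endou and Cd4. Of the 12 largest, Rag2, Rag1, Endou, Slc7a11 and Arpp21 belong to the list of DP stage genes described next. Rag2 lay at -9.37, -9.79 and -9.23 on the CD8SP arrays and between -0.05 and 0.10 on the DP arrays, and it fell by 9.46 ± 0.23 or 705-fold (adjusted p = 8.74e-10). Rag1 lay at -9.01, -9.45 and -9.16 and fell by 9.21 ± 0.12. Each CD8SP array thus lay far below each DP array for both recombinase genes, although genes with overlap were passed over in the choice. Morc1, a gene known for its role in the male germ line, fell by 9.13 ± 0.32, and Endou, an endoribonuclease gene, fell by 8.98 ± 0.12. Dhrs3, a retinal reductase gene, fell by 7.92 ± 0.17, Nebl, which encodes nebulette, by 7.37 ± 0.15, and the transcript Dgkeos fell by 7.35 ± 0.25. Slc7a11, the cystine-glutamate antiporter gene, lay at -6.49, -6.95 and -7.21 in CD8SP. Arpp21 fell by 6.88 ± 0.20, Rapgef3, a cAMP-activated exchange factor gene, fell by 6.87 ± 0.16, and Ldlrad3 by 6.76 ± 0.11. Cd4 was the 1 gene of these 12 called against CD4SP. Nebl (CD8SP minus CD4SP -0.33 ± 0.15, adjusted p = 0.205) was also called lower than in CD4SP without CD8SP replicate 1.

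Of 20 measured genes of the DP stage list, 18 fell, 1 rose and 1 was not called. Their median was -3.02, against 0.0018 over all genes. This list and those below were written with earlier results of these data known, so their counts describe and do not test. Over all genes 18.2% rose and 20.9% fell, the shares that each list count stands beside. Dntt, which adds untemplated nucleotides at junctions, fell by 4.94 ± 0.16. Plxnd1, a semaphorin receptor gene that takes part in DP cell migration, fell by 5.02 ± 0.23, and Spo11 fell by 4.52 ± 0.11. Myb fell by 3.95 ± 0.10, Ptcra, the pre-TCR α chain gene, by 3.14 ± 0.14, and Cd24a, a surface marker lost during maturation, by 2.91 ± 0.10. The member that rose was Rora (0.89 ± 0.21), whose probe sets disagreed: those that were called lay between 0.59 and 1.64, while another was at -0.13. Against CD4SP, CD8SP was lower for 7 members of this list, with and without CD8SP replicate 1. Plxnd1 was among them, with CD8SP minus CD4SP at -2.39 ± 0.23 (adjusted p = 0.000116), as was Spo11, at -1.0 ± 0.11 (adjusted p = 0.000223).

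The recombination machinery did not fall as a whole. Of 14 measured genes of V(D)J recombination and end joining, 8 fell and 5 rose, with a median of -0.37. Besides Rag1, Rag2 and Dntt, Lig4, the ligase of end joining, fell by 3.50 ± 0.12, from DP values between -0.15 and 0.09 to -3.73, -3.46 and -3.32. Xrcc6, which encodes Ku70, fell by 2.29 ± 0.11. Xrcc5, which encodes its partner Ku80, rose by 0.72, Poll, a gap-filling polymerase gene, by 1.18 ± 0.13, and Atm, the kinase gene of the break response, by 1.19 ± 0.08. The 2 Ku subunit genes were therefore called in opposite directions.

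Among the 12 largest rises, Itgae, Nkg7 and Dapl1 belong to the CD8 lineage list, Ccr7 to the maturation list, and Ifit3 and Ifit1 to the interferon-stimulated list. Itgae encodes the integrin αE chain (CD103), and it lay at 7.44, 7.71 and 7.66 on the CD8SP arrays against -0.09, 0.03 and 0.07 on the DP arrays. The rise was 7.60 ± 0.40, or 194-fold (adjusted p = 1.66e-07). Nkg7, a granule membrane protein gene of cytotoxic cells, lay at 7.13, 7.73 and 7.71 and rose by 7.52 ± 0.39. Each CD8SP array lay above each DP array for both, as the choice of these genes required. Smad7, the inhibitory Smad of TGF-β signalling, rose by 7.17 ± 0.36, and Ctss, which encodes cathepsin S, by 7.08 ± 0.48. Ccr7, the receptor gene for chemokines of the thymic medulla, rose by 6.85 ± 0.61, and Gimap4, a GTPase gene of mature lymphocytes, by 6.71 ± 0.54. Ccnd2, which encodes cyclin D2, rose by 6.70 ± 0.31. The interferon-stimulated genes Ifit3, Ifit1 and Ifi27l2a rose by 6.37 ± 0.45, 6.28 ± 0.44 and 6.05 ± 0.35. Sema4a, a semaphorin gene, rose by 6.16 ± 0.31 and Dapl1 by 6.09 ± 0.22. Of these 12, Itgae, Nkg7 and Dapl1 were also higher in CD8SP than in CD4SP, and the other 9 did not differ from CD4SP past the threshold.

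**Figure D2:**
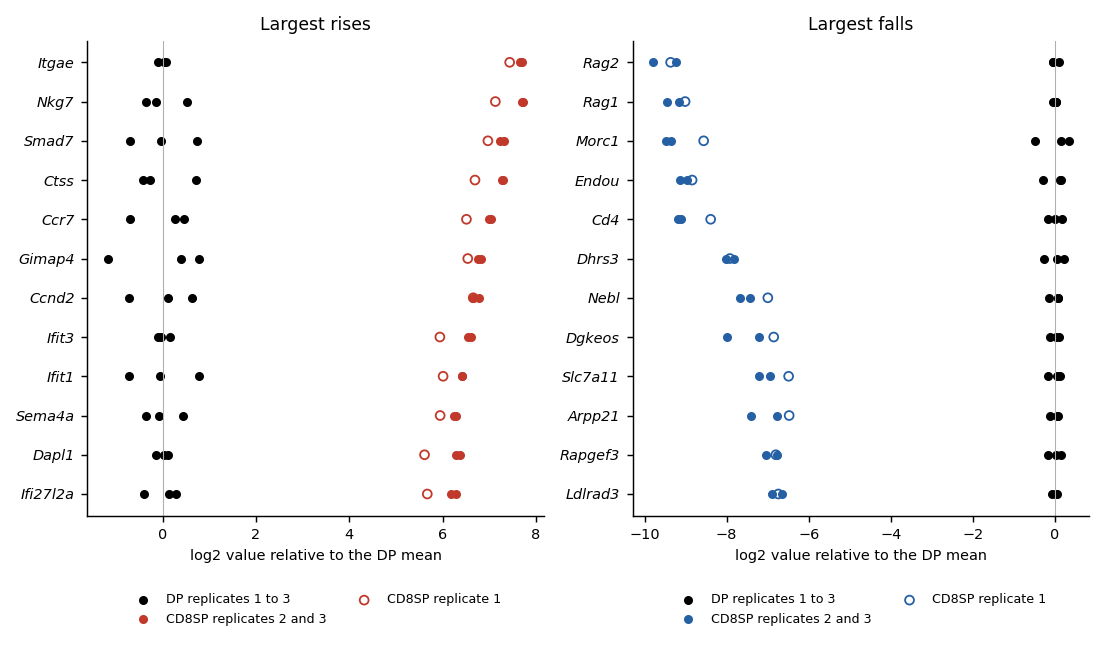
The 12 largest rises (left) and 12 largest falls (right) by array, as log2 values relative to the DP mean; black points are the 3 DP arrays, filled coloured points CD8SP replicates 2 and 3, and open circles CD8SP replicate 1. In the left panel the open circle lies at or left of the filled ones for 11 of 12 genes, as for Dapl1 (5.61 against 6.38 and 6.29). Only genes whose CD8SP and DP arrays do not overlap were taken, so that separation follows from the choice. Arrays did not overlap for 48.6% of all genes.

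Genes of maturation and thymic egress rose together. Among its 20 measured members 17 rose and 2 fell, at a median of 3.13, and the counts were the same without CD8SP replicate 1. Klf2, the transcription factor gene that drives egress receptors, lay at 5.29, 5.65 and 5.74 in CD8SP and rose by 5.56 ± 0.31. S1pr1, the sphingosine-1-phosphate receptor gene, lay at 4.0, 4.99 and 4.91 and rose by 4.63 ± 0.36. Il7r, the interleukin-7 receptor α chain gene, rose by 5.99 ± 0.36 from DP values between -0.70 and 0.59. For all 3 the CD8SP arrays stood clear of the DP arrays, and for S1pr1 CD8SP replicate 1 was the lowest. Ms4a4b rose by 4.90 ± 0.27, Itgb7, the β partner of integrin αE, by 4.12 ± 0.18, and Foxo1, an activator of Klf2 and Il7r, by 1.62 ± 0.13. The Foxo1 probe sets that were called lay between 2.10 and 2.32, while another was at -0.16. Cd69, an early activation marker that opposes S1pr1 at the cell surface, rose as well (1.94 ± 0.17). The falls were of Ifngr1, an interferon-γ receptor chain gene (-2.44 ± 0.12), and Ly6e (-1.18 ± 0.14). Il7r was the 1 member of this list called against CD4SP, lower in CD8SP (-1.21 ± 0.36, adjusted p = 0.0499), a difference that was not called without CD8SP replicate 1.

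Among 20 receptors for chemokines and egress signals, 8 rose and 3 fell (8 and 4 without CD8SP replicate 1), with a median of 0.15. These shares were 40% and 15%, against 18.2% and 20.9% over all genes. After Ccr7, the largest rise was of Cxcr6, the receptor gene for CXCL16, which lay at 4.71, 5.87 and 5.81 in CD8SP (5.46 ± 0.56) and was higher than in CD4SP by 3.27 ± 0.56 (adjusted p = 0.00367). Ccr8 rose by 3.80 ± 0.35 but lay below CD4SP, with CD8SP minus CD4SP at -2.33 ± 0.35 (adjusted p = 0.00175). Gpr183, an oxysterol receptor gene, showed the same order, with a rise of 1.92 ± 0.16 and a difference from CD4SP of -1.65 ± 0.16. Its probe sets differed, at 3.55 and 0.28, and with the less variable of them alone the rise was not called (adjusted p = 0.0572). S1pr4 rose by 2.33 ± 0.18 and Cxcr3 by 0.98 ± 0.18. Ccr9 and Cxcr4, receptor genes for cortical chemokines, fell by 1.16 ± 0.12 and 2.12 ± 0.51, and Ackr3, an atypical chemokine receptor gene, fell by 1.05 ± 0.36 (adjusted p = 0.0374). CD8SP replicate 1 was the nearest to DP for Cxcr4, at -1.40 against -2.49 and -2.50.

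Of 18 integrin and adhesion genes, 9 rose and 5 fell (9 and 4 without CD8SP replicate 1), with a median of 0.65. Itgb3, the integrin β3 gene, rose by 3.31 ± 0.33 but lay below CD4SP (-2.82 ± 0.33, adjusted p = 0.000445), whereas Cd226, an adhesion receptor gene of cytotoxic cells, rose by 3.12 ± 0.18 and lay above it (1.12 ± 0.18, adjusted p = 0.00295). Icam1, the ligand gene of LFA-1, rose by 1.95 ± 0.21 and also lay above CD4SP (1.41 ± 0.21, adjusted p = 0.00157). The LFA-1 α chain gene Itgal lay at -0.26, -0.12 and -0.26 and was not called. In the Gimap family of lymphocyte GTPases 5 of 8 genes rose, 6 without CD8SP replicate 1: Gimap3 by 5.66 ± 0.44, Gimap4 as above, Gimap7 by 2.58 ± 0.16, and Gimap5 and Gimap8 by 1.45 and 1.21. Gimap9 fell by 0.67 ± 0.17. In the Schlafen family, whose members restrain lymphocyte growth, 4 of 7 rose, led by Slfn1 (3.62 ± 0.35) and Slfn8 (2.59 ± 0.23), and Slfn3 fell by 1.51 ± 0.16. The size for Slfn1 rests on 1 probe set at 7.75, while the other was at -0.50 and not called. Several Gimap and Schlafen genes are close paralogs, so their probe sets may share transcripts.

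The CD8 lineage and cytotoxic list rose in part. Calls were made for 20 of 27 measured genes, 18 up and 2 down, at a median of 1.96, and without CD8SP replicate 1 the counts were 17 and 2. CD8SP was above CD4SP for 15 of the 27 and below it for 2, against 4.91% and 7.78% of all genes, and 13 and 2 without that array. Runx3, the factor that silences Cd4, lay at 1.98, 1.92 and 1.98 in CD8SP and at 1.26, 1.07 and 1.05 in CD4SP. It rose by 1.96 ± 0.12 and was higher than in CD4SP by 0.83 ± 0.12 (adjusted p = 0.00157). The size differed between its probe sets, at 0.73 and 3.20. Eomes, a factor of memory and cytotoxic fate, lay at 3.96, 5.30 and 4.93 and rose by 4.73 ± 0.63, and was above CD4SP by 3.30 ± 0.63 (adjusted p = 0.00683). Tbx21, which encodes T-bet, rose by 1.14 ± 0.41 (adjusted p = 0.0462), a call that was lost without CD8SP replicate 1. Runx1 fell by 1.60 ± 0.16, and its probe sets were called lower with the exception of 1 at -0.004.

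Granule and surface genes of cytotoxic cells divided. Klrd1, which encodes the NK receptor chain CD94, lay at 5.19, 6.28 and 6.23 on the CD8SP arrays and at 1.40, 1.37 and 1.55 on the CD4SP arrays, and rose by 5.90 ± 0.42. Ctsw, the cathepsin W gene, rose by 6.04 ± 0.47, Crtam, an adhesion molecule gene of class I restricted cells, by 5.81 ± 0.21, and Cst7, the cystatin F gene, by 5.19 ± 0.35. Plac8 rose by 4.34 ± 0.23, Xcl1, a chemokine gene, by 3.71 ± 0.22, and Cd160 by 3.16 ± 0.22. All 7 were also above CD4SP: Xcl1 lay at 3.23, 3.79 and 4.11 in CD8SP against 0.19, 0.36 and 0.28 there. Prf1, the perforin gene, rose by 0.94 ± 0.11 and was above CD4SP by the same amount. Its probe sets disagreed, at 2.30 and at -0.43, the latter not called. Gzmb rose by 0.88 ± 0.27 and did not differ from CD4SP past the threshold (adjusted p = 0.131). Gzma, a granzyme gene also held by NK cells, fell by 2.96 ± 0.34, at -2.12, -3.09 and -3.66. The values of Gzmm, Gzmk, Fasl, Klrk1 and Ifng lay between -0.03 and 0.68, and none was called.

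**Figure D3:**
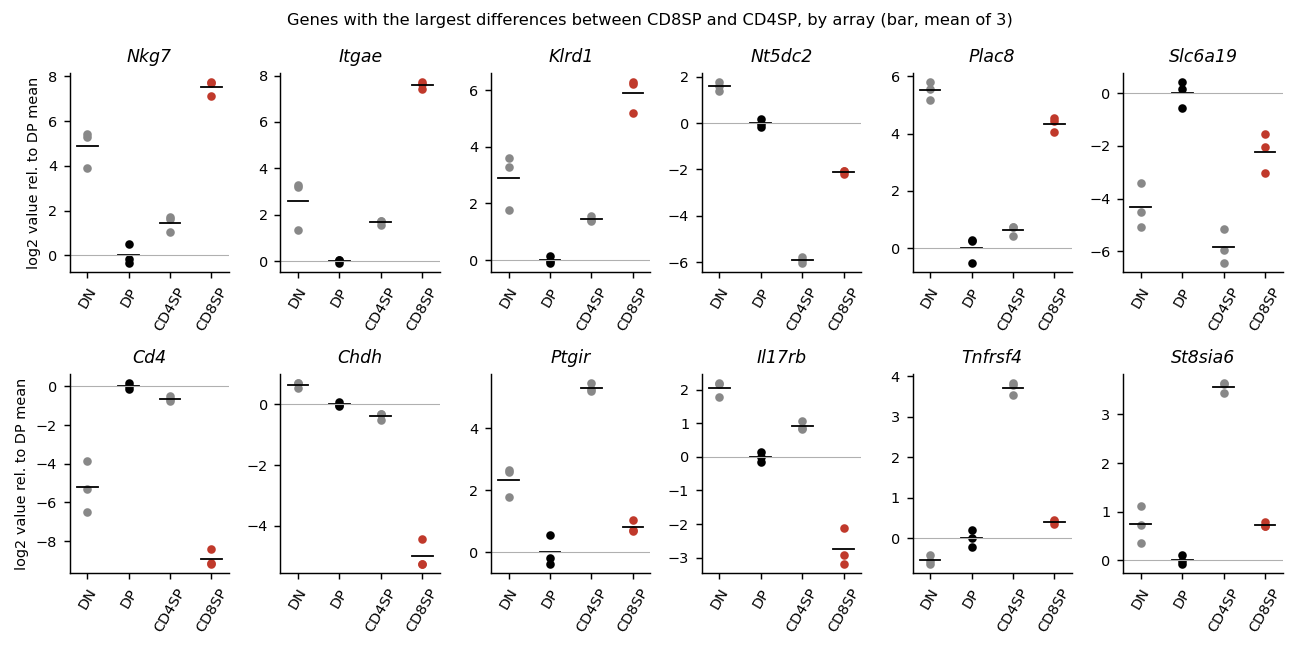
Values by array, as log2 relative to the DP mean, of the 6 genes with the largest positive (top) and the 6 with the largest negative (bottom) CD8SP minus CD4SP difference among genes called both against CD4SP and against DP; each point is an array, the bar is the mean of 3, and each panel has its own axis. Klrd1 and Itgae were higher in CD8SP than in CD4SP, Nt5dc2 and Slc6a19 fell below DP in both but less in CD8SP, and Ptgir, Tnfrsf4 and St8sia6 lay higher in CD4SP than in CD8SP.

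The CD4 lineage list, the counterpart of the former, held no gene that was higher in CD8SP than in CD4SP, and 11 of its 15 measured genes were lower there, with and without CD8SP replicate 1. Against DP, 7 rose and 4 fell, with a median of 0.34. Zbtb7b, which encodes ThPOK, the factor that fixes the CD4 fate, lay at 0.61, 0.36 and -0.23 in CD8SP and at 3.37, 3.20 and 3.21 in CD4SP. It was not called against DP (0.24 ± 0.21, adjusted p = 0.397), and CD8SP minus CD4SP was -3.02 ± 0.21 (adjusted p = 1.45e-05). The CD8SP arrays overlapped the DP arrays and lay apart from the CD4SP arrays. Gata3, which acts upstream of Zbtb7b, fell by 1.33 ± 0.21 and CD8SP minus CD4SP was -1.80 (adjusted p = 0.000498). Tnfrsf4, the OX40 gene, lay at 0.44, 0.36 and 0.43 in CD8SP against 3.78, 3.53 and 3.83 in CD4SP, and rose by 0.41 ± 0.12. Some members of the list nevertheless rose strongly from DP. Izumo1r rose by 4.64 ± 0.12, Il6ra by 2.55 ± 0.19, Icos by 2.49 ± 0.28 and Lef1 by 1.19 ± 0.07. For Izumo1r, Il6ra and Lef1 the rise was smaller than in CD4SP, with CD8SP minus CD4SP at -0.96, -0.91 and -0.40, and for Icos the difference from CD4SP was not called (adjusted p = 0.0907).

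**Figure D4:**
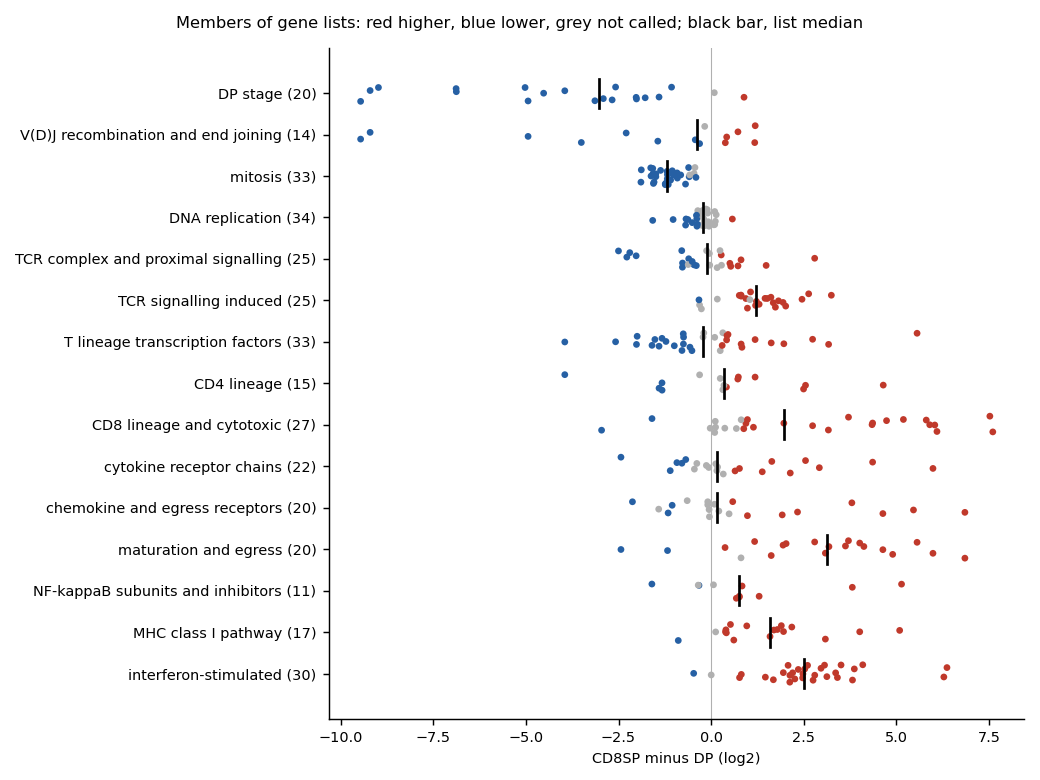
CD8SP minus DP (log2, horizontal axis) of each measured member of 15 gene lists, the number of members in brackets; red points were called higher, blue points lower, grey points were not called, and black bars are list medians. Interferon-stimulated, MHC class I and maturation genes lie mostly right of 0, DP stage and mitosis genes left of it, and T lineage transcription factors on both sides.

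T lineage transcription factors moved both ways: of 33 measured, 12 rose and 16 fell (12 and 15 without CD8SP replicate 1), with a median of -0.22. Besides Klf2, Runx3, Foxo1 and Lef1, Bach2, a repressor gene of effector fate, rose by 3.17 ± 0.17, at 3.27, 2.96 and 3.28 in CD8SP, and Id2 rose by 2.74 ± 0.42. Id2 was lowest on CD8SP replicate 1, at 1.94 against 3.06 and 3.21. The falls included Ets2 (-2.58 ± 0.17), Tcf12, an E protein gene of the DP stage (-2.02 ± 0.08), Nfatc3 (-2.0 ± 0.10) and Sox4 (-1.52 ± 0.18). Satb1, a chromatin organiser gene of thymocytes, lay at -1.36, -1.50 and -1.36 and fell by 1.41 ± 0.13. Bcl11b, which maintains T cell identity, fell by 1.22 ± 0.15, and Ikzf1, the Ikaros gene, by 0.75 ± 0.09. Against CD4SP, 3 were higher and 13 lower in CD8SP, 4 and 12 without CD8SP replicate 1. Satb1, Runx1, Bcl11b and Ikzf1 were among the lower ones, with differences of -0.99, -1.37, -0.75 and -0.72. Bcl6, a repressor gene outside the list and named after its value was seen, fell by 3.07 ± 0.12.

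Genes induced by TCR signalling were higher in CD8SP than in DP: of 25 measured, 20 rose, 1 fell and 4 were not called, with a median of 1.22, and the counts were the same without CD8SP replicate 1. Tnfrsf9, the CD137 gene, rose by 3.24 ± 0.23 as a mean over probe sets at 4.51, 5.46 and -0.24, so its size depends on the probe set. Myc lay at 2.25, 2.78 and 2.86 and rose by 2.63 ± 0.16, and Nab2, a corepressor gene of the Egr factors, rose by 2.45 ± 0.18. Nr4a1, an immediate gene of TCR signalling, lay at 1.67, 1.68 and 1.85 in CD8SP and at 3.40, 2.96 and 2.97 in CD4SP. Its CD8SP minus CD4SP difference was -1.38 ± 0.28 (adjusted p = 0.00912), and the 2 subsets did not overlap. Cd5, a surface protein gene set by TCR signal strength, had the same order: it rose by 0.81 ± 0.22, and lay below CD4SP (-1.29 ± 0.22, adjusted p = 0.00329). Egr1 and Egr2 rose by 1.22 ± 0.19 and 1.68 ± 0.23 and were not called against CD4SP (adjusted p = 0.0786 and 0.0711). Over the list, 7 genes were lower in CD8SP than in CD4SP and 0 higher, 2 higher without CD8SP replicate 1. The 1 member that fell from DP was Nfkbia, the IκBα gene (-0.33 ± 0.09, adjusted p = 0.0139). Under quantile normalization 10 members were called higher than in DP.

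The receptor complex and its proximal signalling genes did not follow. Of 25 measured, 7 rose and 11 fell (10 without CD8SP replicate 1, 5 under quantile normalization), with a median of -0.12. The CD3 chain genes Cd3d, Cd3e and Cd3g lay at -0.04, -0.12 and 0.28 and were not called. Sh2d1a, an adaptor gene of SLAM receptors, fell by 2.50 ± 0.11, Cbl, a ubiquitin ligase gene that limits TCR levels, by 2.28 ± 0.09, Trat1 by 2.20 ± 0.10 and Themis, which is needed for positive selection, by 2.02 ± 0.09. Among the rises, Cd2 reached 2.79 ± 0.15, Fyn, a Src family kinase gene, 1.48 ± 0.14, and Zap70 0.27 ± 0.08 (adjusted p = 0.0218). Cd28, the costimulatory receptor gene, lay at -0.68, -0.89 and -0.81 in CD8SP and at 0.84, 0.82 and 0.84 in CD4SP, on opposite sides of DP. It fell by 0.79 ± 0.11, and CD8SP minus CD4SP was -1.63 ± 0.11 (adjusted p = 1.38e-05). In all, 9 of the 25 were lower in CD8SP than in CD4SP (8 without CD8SP replicate 1) and 1 was higher.

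Genes of NF-κB subunits and inhibitors rose in 7 of 11 cases and fell in 2, with a median of 0.76, while under quantile normalization 4 were called higher. Bcl3, an IκB protein gene that binds p50 and p52, lay at 4.90, 5.17 and 5.35 and rose by 5.14 ± 0.32. Relb, the subunit gene of the noncanonical pathway, lay at 3.53, 4.02 and 3.88, and rose by 3.81 ± 0.36. The CD8SP arrays of both lay above all DP arrays. Rela lay at 0.06 and was not called, and Tnfaip3, the A20 gene, an inhibitor of the pathway, fell by 1.60 ± 0.12. Neither Bcl3 nor Relb differed from CD4SP past the threshold.

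Cytokine receptor chains rose in 9 of 22 cases (10 without CD8SP replicate 1) and fell in 5, with a median of 0.16. The share that rose was 40.9%, against 18.2% over all genes, and the share that fell was 22.7%, close to 20.9% over all genes. After Il7r, the largest rise was of Il2rb, the chain gene shared by the interleukin-2 and interleukin-15 receptors, which lay at 4.27, 4.47 and 4.33 in CD8SP against 3.23, 2.92 and 3.03 in CD4SP. It rose by 4.36 ± 0.36 and was above CD4SP by 1.29 ± 0.36 (adjusted p = 0.0405), a difference not called without CD8SP replicate 1. Il27ra rose by 2.92 ± 0.15, Il18r1 by 2.13 ± 0.48 and Tgfbr2, the type II TGF-β receptor gene, by 1.64 ± 0.16, while Tgfbr1, its type I partner, fell by 1.10 ± 0.10. Il4ra lay at -0.06 ± 0.13 and was not called, but its probe sets disagreed. Those that were called lay in opposite directions, at -0.508 and 0.755. Downstream, 6 of 18 JAK, STAT and SOCS genes rose and 6 fell (5 and 7 without CD8SP replicate 1), with a median of 0.01. Cish, a target gene of STAT5, lay at 3.03, 2.65 and 2.69 and rose by 2.79 ± 0.20. Jak3, the kinase gene that pairs with the common γ chain, rose by 1.82 ± 0.15, and Jak1 by 0.96 ± 0.13. Stat4 rose by 1.28 ± 0.20 and was above CD4SP by 1.26 ± 0.20 (adjusted p = 0.00228). Stat5b and Stat5a fell by 1.45 ± 0.14 and 0.74 ± 0.17, and Socs1, a feedback inhibitor gene, fell by 1.48 ± 0.14. The 3 feedback genes Cish, Socs1 and Socs3 thus differed, with Socs3 at 0.34 ± 0.24 and not called.

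Interferon-stimulated genes formed the most uniform group to rise among those listed here: of 30 measured, 28 rose, 1 fell and 1 was not called, with a median of 2.50, and the counts were the same without CD8SP replicate 1. These genes are known to be switched on through a promoter element, the interferon-stimulated response element, bound by factors made of STAT and IRF proteins. The promoters of 3 members that rose are shown. They had the lowest adjusted p among those with a core of that element before the start. Each stretch holds 2 matches. The stretches are 100 bases long, from RefSeq, build GRCm38.p6, with matches to GAAA, any 2 bases and GAAA on either strand in capitals: Irgm1 at chr11:48871421-48871520 (minus strand), Ifit3 at chr19:34583362-34583461 (plus strand) and Ifit1 at chr19:34640759-34640858 (plus strand). They end 1, 68 and 31 bases before the annotated start, and the 2 matches of Irgm1 overlap each other.
Irgm1: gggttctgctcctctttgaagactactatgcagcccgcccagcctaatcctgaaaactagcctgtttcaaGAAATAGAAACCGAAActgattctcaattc
Ifit3: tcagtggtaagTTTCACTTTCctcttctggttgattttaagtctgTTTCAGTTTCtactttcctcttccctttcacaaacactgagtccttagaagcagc
Ifit1: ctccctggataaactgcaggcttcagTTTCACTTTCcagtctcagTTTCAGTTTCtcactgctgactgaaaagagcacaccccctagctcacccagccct

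The core (GAAA, any 2 bases, GAAA) was searched on both strands of windows from 250 bases before to 50 bases after each annotated start. It was held by 13 of the 22 interferon-stimulated genes called higher that had a window (59.1%) and by 1 of 2 that were not, against 3.63% of all 14452 genes with one. In the MHC class I list it was held by 2 of 13 genes called higher, B2m and Erap1, and not by the 1 gene that was not called higher. A match is a run of letters, and binding was not measured.

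Ifit3 and Ifit1, whose products bind viral RNA, lay at 5.94, 6.55 and 6.60 and at 6.01, 6.41 and 6.43 on the CD8SP arrays, and between -0.71 and 0.78 on the DP arrays. Irgm1, an interferon-induced GTPase gene, lay at 2.54, 2.81 and 2.90 and rose by 2.75 ± 0.16 (adjusted p = 4.28e-07). CD8SP replicate 1 was the lowest of the 3 for each. Among the other members, Rtp4 rose by 4.09 ± 0.25, Oasl2 by 3.86 ± 0.36 and Oas2, an antiviral oligoadenylate synthetase gene, by 3.36 ± 0.14. The factors themselves also rose: Irf7 by 3.81 ± 0.33, Irf9 by 2.60 ± 0.23 and Irf1 by 2.08 ± 0.11. Stat2, the partner of Irf9, was the member that fell (-0.47 ± 0.09, adjusted p = 0.00219), and Ifit2 lay at -0.29, 0.05 and 0.25 and was not called. Of the receptor chain genes for interferons, Ifnar1 and Ifnar2 were not called, Ifngr1 fell and Ifngr2 rose by 0.65 ± 0.11. Against CD4SP 5 members were lower in CD8SP and 1 higher (3 and 2 without CD8SP replicate 1), including Oas2 at -0.75 ± 0.14 and Samhd1 at -0.93 ± 0.24, the latter not called without that array.

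The MHC class I pathway rose alongside: 15 of 17 measured genes rose and 1 fell, at a median of 1.59. Nlrc5, the transactivator of class I genes, lay at 5.13, 5.04 and 5.09 and rose by 5.09 ± 0.26. The heavy chain genes H2-K1 and H2-D1 rose by 4.01 ± 0.20 and 3.08 ± 0.17, and their light chain gene B2m by 1.69 ± 0.12. Class I heavy chains are close paralogs, and probe sets may take up transcripts of more than 1 of them. Of the loading machinery, Tapbp, the tapasin gene, rose by 1.95 ± 0.22, the immunoproteasome genes Psmb9 and Psmb10 by 1.79 and 1.89, and Tap1, a peptide transporter gene, by 0.52. Tap2, the other transporter subunit gene, fell by 0.89 ± 0.13, at -1.19, -0.89 and -0.58. The transporter subunit genes were therefore called in opposite directions, each from few probe sets. The class I genes named here did not differ from CD4SP past the threshold, which was called for 1 member of the list, and for 4 without CD8SP replicate 1, Psmb9 and Psmb10 among them.

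Genes of mitosis fell, while most genes of DNA replication were not called. Of 33 measured mitosis genes, 30 fell, 0 rose and 3 were not called, with a median of -1.18, and 29 fell without CD8SP replicate 1. Of 34 measured DNA replication genes, 11 fell, 1 rose and 22 were not called, with a median of -0.21. The 11 became 9 without CD8SP replicate 1 and 7 without DP replicate 1. Under quantile normalization 10 mitosis genes and 2 replication genes were called lower. Mitosis genes are known to be repressed in resting cells through a promoter element called CHR, and replication genes through E2F sites. The promoters of 3 mitosis genes that fell are shown. They had the lowest adjusted p among those with a core of the CHR element before the start. Each stretch is the 100 bases before the annotated start in RefSeq, build GRCm38.p6, with TTTGAA on either strand in capitals: Kif11 at chr19:37376282-37376381 (plus strand), Kif22 at chr7:127042421-127042520 (minus strand) and Ube2c at chr2:164769829-164769928 (plus strand).
Kif11: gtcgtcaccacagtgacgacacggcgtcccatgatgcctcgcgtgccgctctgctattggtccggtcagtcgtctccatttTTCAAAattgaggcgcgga
Kif22: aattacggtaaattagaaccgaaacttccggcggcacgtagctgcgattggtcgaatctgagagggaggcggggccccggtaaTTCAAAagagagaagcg
Ube2c: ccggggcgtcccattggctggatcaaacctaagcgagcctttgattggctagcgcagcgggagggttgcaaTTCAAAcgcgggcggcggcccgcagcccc

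TTTGAA was held by the windows of 17 of 25 mitosis genes called lower (68%), against 15.7% of all genes with a window and 0 of 10 replication genes called lower. It was also held by the 2 mitosis genes with a window that were not called lower and by 4 of 18 such replication genes (22.2%). The E2F core GGCGGGAA was held by 1 of those 10 replication genes, Rrm1, by 4 of 18 that were not called lower, by 0 of the 25 mitosis genes and by 3.76% of all genes. Both strands were searched, and the lack of a match says only that these letters are not in the window.

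Kif11, the motor gene that separates spindle poles, lay at -1.66, -1.93 and -2.10 on the CD8SP arrays and at 0.27, -0.17 and -0.10 on the DP arrays. It fell by 1.90 ± 0.21 (adjusted p = 3.66e-05). Ube2c, a ubiquitin-conjugating enzyme gene of mitotic exit, lay at -1.68, -1.91 and -2.07 and fell by 1.89 ± 0.26, and Kif22 at -1.19, -1.20 and -1.33, a fall of 1.24 ± 0.17. For each of these the arrays of the groups did not overlap. Mki67, the proliferation marker gene, fell by 1.54 ± 0.26, and Cdk1 by 1.22 ± 0.21. In the replication list, Mcm6, a subunit gene of the replicative helicase, lay at 0.11, 0.16 and 0.14 in CD8SP against 0.13, -0.07 and -0.06 in DP and was not called. Mcm2, Mcm3, Mcm4 and Mcm5 lay between -0.09 and 0.11 and were not called either. Among the 11 that fell, Rrm2 and Rrm1, the ribonucleotide reductase genes, fell by 1.58 ± 0.15 and 1.03 ± 0.17, Tk1 by 0.68 ± 0.14, Dut by 0.69 ± 0.16 and Pcna, the clamp gene, by 0.51 ± 0.09. The others were Gins1, a helicase cofactor gene (-0.63 ± 0.15), Mcm7, a further helicase subunit gene (-0.39 ± 0.09), the origin licensing genes Orc6 and Cdc6, the polymerase gene Pola1 and the ligase gene Lig1, the last 4 between -0.39 and -0.37. Rfc2, a clamp loader gene, rose by 0.57 ± 0.09.

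The replication genes separated the single-positive subsets. CD8SP was above CD4SP for 27 of the 34 and below for 0, against 4.91% of all genes called higher, and for 26 without CD8SP replicate 1. For mitosis genes the counts were 11 and 0 of 33, and 7 without that array. These list counts against CD4SP were not read under other processing. Over all genes, those called higher than CD4SP went from 893 to 111 under quantile normalization. Mcm6 was above CD4SP by 1.12 ± 0.09 (adjusted p = 3.85e-05), where its mean was -0.99. Prim1, the primase gene, was above it by 0.98 ± 0.11 and Gins1 by 1.02 ± 0.15. Cdk1 was above CD4SP by 1.05 ± 0.21 (adjusted p = 0.00945), whereas Mki67 and Top2a were not called (adjusted p = 0.095 and 0.311). In CD4SP 29 replication genes and 32 mitosis genes were called below DP, a comparison that shares the DP arrays with the one above.

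**Figure D5:**
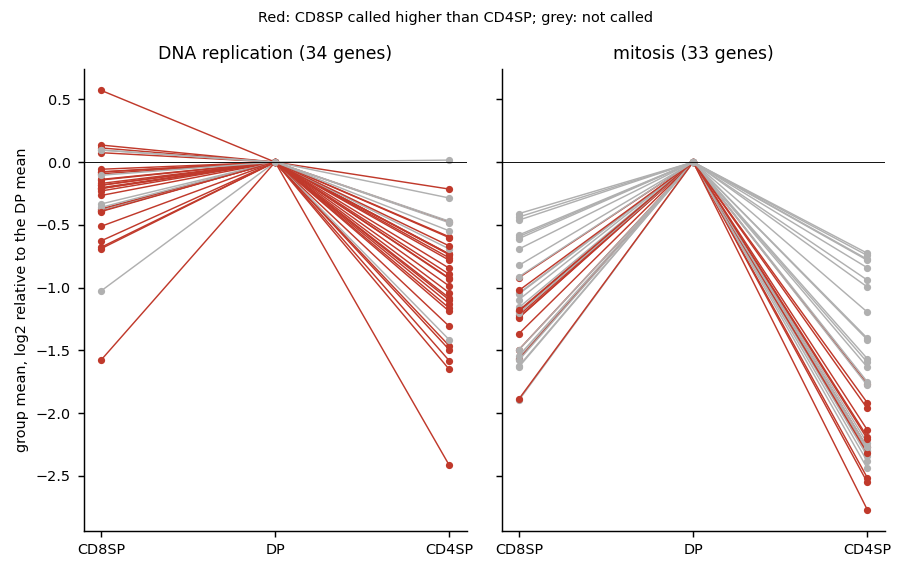
Group means of 34 DNA replication genes (left) and 33 mitosis genes (right), as log2 relative to the DP mean; each line is a gene through CD8SP, DP (at 0 by construction) and CD4SP, drawn red where CD8SP was called higher than CD4SP. Most replication genes stay near 0 in CD8SP and lie lower in CD4SP (27 of 34 red), and mitosis genes lie below 0 in both (11 of 33 red).

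Among 22 cyclins, kinases and inhibitors of G1, 4 rose (18.2%, the share over all genes) and 10 fell (45.5%, against 20.9% over all genes), with a median of -0.21; without CD8SP replicate 1, 3 rose. Ccnd2 lay at 6.66, 6.65 and 6.78 in CD8SP and between -0.73 and 0.62 in DP, while Ccnd3, the cyclin D3 gene, fell by 1.86 ± 0.22. Ccnd2 and Ccnd3 were thus called in opposite directions, with Ccnd1 at 0.35 and not called without CD8SP replicate 1. Cdk4 rose by 0.78 ± 0.10. E2f2 fell by 2.21 ± 0.16, and the inhibitor genes Cdkn2c and Cdkn1b by 1.48 ± 0.13 and 1.05 ± 0.17. Of 14 BCL2 family genes, 3 rose (21.4%, close to the 18.2% over all genes) and 5 fell (35.7%), with a median of -0.14. Bcl2, the survival gene maintained by interleukin-7, lay at 3.86, 3.58 and 3.68 and rose by 3.71 ± 0.14. Bcl2l1, which encodes Bcl-xL, the survival protein of DP cells, lay at -3.06, -2.49 and -2.47 and fell by 2.67 ± 0.15, and CD8SP minus CD4SP was -0.88 (adjusted p = 0.00377). The proapoptotic genes Bbc3 and Bid fell by 1.13 ± 0.21 and 0.98 ± 0.17. Bcl2l11, the Bim gene, was at -0.31 and not called. Its probe sets at -0.86 and -0.39 were called lower, and the others, from -0.32 to 0.31, were not called. Bmf (-0.57 ± 0.14) rested on 1 of its 3 probe sets.

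Of 13 glycolysis genes 6 rose (7 without CD8SP replicate 1) and 1 fell, with a median of 0.56: Aldoa and Pgam1 rose by 1.08 ± 0.08 and 1.08 ± 0.10, the lactate dehydrogenase gene Ldha by 0.59 ± 0.10 and the glucose transporter gene Slc2a1 by 0.56 ± 0.11. Of 16 genes of cholesterol biosynthesis 7 fell and 1 rose, with a median of -0.25 (3 lower under quantile normalization). Sqle, the squalene epoxidase gene, fell by 1.57 ± 0.13, Insig1, a sterol sensor gene, by 1.62 ± 0.17 and Srebf2, the sterol-responsive factor gene, by 0.99 ± 0.10, while Mvd rose by 0.69 ± 0.09. Cytosolic ribosomal protein genes rose in 16 of 27 cases and fell in 0, with a median of 0.31. Rpl37 rose by 1.45 ± 0.11 and Rps19 by 1.16 ± 0.08. These transcripts have many processed pseudogenes, and the count was 10 without probe sets marked as able to cross-hybridise and 6 under quantile normalization. In the list of dissociation and heat shock genes, which can respond to cell isolation, 3 of 16 rose and 3 fell, 18.8% each way and so near the 18.2% and 20.9% over all genes, and 2 and 2 without CD8SP replicate 1. Hspe1 rose by 1.65 ± 0.15, and Jun and Btg2 fell by 1.63 ± 0.32 and 1.57 ± 0.16. The mean of this list lay between -0.14 and 0.11 on the CD8SP arrays and between -0.11 and 0.15 on the DP arrays.

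Markers of other cells that a thymocyte gate could hold were read for their changes, since the centring on DP removes their levels. Of 8 B cell markers, each read as the mean of its probe sets, 0 were called by limma and 0 had an unadjusted p under 0.05. The mean of the 8 lay between -0.13 and 0.04 in CD8SP and between -0.05 and 0.05 in DP. Read singly, Ighm probe sets at -0.995 and -0.802 were called lower, and its others were not called. Of 6 NK and innate lymphoid markers only Gzma was called, and it fell, and the means were -0.26 to -0.10 against -0.10 to 0.12. Of 15 myeloid and dendritic markers 2 rose and 2 fell, 13.3% each way against 18.2% and 20.9% over all genes. The falls were of H2-Ab1, with probe sets between -2.01 and -0.70, and of Itgam, at -0.69, and the rises were of Adgre1, at 0.45, and Fcgr3. Fcgr3, an Fc receptor gene, lay at 2.29, 1.35 and 1.05 and was highest on CD8SP replicate 1, without which 1 of the 15 rose and 0 fell. The mean of this list lay between 0.03 and 0.22 in CD8SP and between -0.09 and 0.12 in DP. Of 6 γδ and innate-like markers 3 rose, Cd163l1, Zbtb16 and Il17a, and 1 without that array. Cd163l1 stood at 2.60 on 1 probe set and 0.00 on the other, and Zbtb16 at 0.77, 0.44 and 0.41 on the CD8SP arrays. Without probe sets marked as able to cross-hybridise, Zbtb16 was at 0.06 and not called (limma adjusted p = 0.568). The mean of these 6 markers was 0.21 to 0.56 against -0.10 to 0.16.

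Of 7 regulatory T cell markers 5 rose, led by Gpr83 (3.40 ± 0.17), and Tnfrsf18, Ikzf2, Ctla4 and Tnfrsf4 rose by 1.03, 0.83, 0.72 and 0.41, but Foxp3, the defining factor, lay at 0.20, -0.01 and 0.28 and was not called. The mean was 0.83 to 0.93 in CD8SP, -0.02 to 0.03 in DP and 1.86 to 2.01 in CD4SP, and 5 of these markers were lower in CD8SP than in CD4SP. Of 10 DN progenitor markers Kit and Cd44 rose (20%, near the 18.2% over all genes), by 1.35 ± 0.20 and 1.26 ± 0.26. The means of this list were 0.10 to 0.34 against -0.15 to 0.08. Of 12 stromal markers Ccl25 rose and Pecam1 fell, neither without CD8SP replicate 1, and their means lay between -0.05 and 0.12 in CD8SP and between -0.05 and 0.03 in DP. Of 3 erythroid markers Hba-a1 rose by 0.34 ± 0.09, and the means were -0.67 to 0.08 against -0.48 to 0.24. The part of these cells in the differences described above was not tested.

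The test of whether CD8SP and CD4SP differ, in which the shared DP arrays cancel, called 2308 genes (12.7%), 893 higher in CD8SP (4.91%) and 1415 lower (7.78%). Leaving out CD8SP replicate 1 gave 1364 higher (7.50%) and 1425 lower (7.83%), 15.3% of genes in all, so that 48.9% of called genes were higher against 38.7% with it. That share was also 46.5% when arrays were centred on their medians (1010 higher and 1164 lower), 48.5% under quantile normalization and 49.2% when each gene was read from its highest-mean probe set. The count of higher genes was 559 and 538 without CD8SP replicates 2 and 3 and 536 and 563 without CD4SP replicates 2 and 3, and that of lower genes was 811 without CD4SP replicate 3. Of the genes that rose from DP, 448 were above CD4SP and 180 below it. Of those that fell, 901 were below CD4SP and 180 above. A further 599 genes differed from CD4SP but were not called against DP. Among genes called in both tests, the largest positive differences were of Nkg7 (6.08 ± 0.39), Itgae (5.93 ± 0.40) and Klrd1 (4.46 ± 0.42), followed by Nt5dc2 (3.80 ± 0.12), Plac8 (3.71 ± 0.23) and Slc6a19 (3.63 ± 0.50). Nt5dc2, a nucleotidase domain gene, lay at -2.19, -2.07 and -2.08 in CD8SP and at -5.93, -6.05 and -5.77 in CD4SP, and Slc6a19, an amino acid transporter gene, had also fallen from DP in CD8SP, by 2.22 ± 0.50. These 2 therefore had a positive difference with values below DP in both subsets.

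The largest negative differences after Cd4 (-8.26 ± 0.50) were of Chdh (-4.61 ± 0.19), Ptgir (-4.49 ± 0.27), Il17rb (-3.67 ± 0.24), Tnfrsf4 (-3.30 ± 0.12) and St8sia6 (-2.84 ± 0.16). Chdh, the choline dehydrogenase gene, lay at -4.43, -5.26 and -5.26 in CD8SP and between -0.52 and -0.30 in CD4SP, and it fell from DP in CD8SP by 4.98 ± 0.19. Ptgir, the prostacyclin receptor gene, lay at 0.69, 1.04 and 0.72 in CD8SP and between 5.21 and 5.44 in CD4SP, and its small rise over DP (0.82 ± 0.27, adjusted p = 0.0327) was not called without CD8SP replicate 1 (adjusted p = 0.0505). Il17rb, which encodes the interleukin-25 receptor, lay at -2.10, -3.20 and -2.93 in CD8SP, at 1.08, 0.86 and 0.83 in CD4SP and near 0 in DP. St8sia6, a sialyltransferase gene, rose in both subsets, by 0.73 ± 0.16 in CD8SP on the mean of its probe sets.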

How the data were processed

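Per the labels' protocols, RNA of 4 sorted mouse thymocyte subsets was hybridised to 12 Affymetrix arrays. The authors deposited 1 log2 value per probe set and array (45101 probe sets, 0 missing); no source used here gives the log base, which was read as log2. The submitters' processing notes name MAS5, with no role or version. The deposited values are centred on DP, probe set by probe set (largest absolute DP mean 1.27e-06), so signal over background is lost and dim probe sets could not be left out. Of the probe sets, 34958 had 1 symbol, 932 several and 9211 none; without controls 34945 were averaged into 18193 genes, 9010 of them with more than 1 probe set. For 245 genes probe sets were called in opposite directions. Gene IDs of 34741 probe sets were in a RefSeq table of GRCm38.p6, with 0 symbols differing.

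A model of 4 group means was fitted to all 12 arrays with lmFit, contrasts.fit and eBayes without trend (limma 3.58.1, R 4.3.3). P-values are two-sided, adjusted by the Benjamini-Hochberg method over 18193 genes per comparison; precision is limited by the number of arrays. The fit was tested on simulated data first. The labels do not say what the replicate numbers mark, so no block was used. Members and gene lists were chosen with earlier results of these data known. Named genes are the sort genes, the 12 largest rises and falls whose arrays do not overlap and whose call holds without CD8SP replicate 1, up to 4 called members per list and direction with the lowest adjusted p, and the 6 largest differences each way from CD4SP among genes also called against DP, passing over symbols that are only identifiers; all other genes were named after their values were seen. List members with no value are not analysed here. The alternatives were other ways to combine probe sets, to normalize and to fit, and leaving out each array. Promoter windows came from RefSeq, build GRCm38.p6, and were matched by symbol for 14452 genes.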

Additional observations from a re-analysis of the deposited data

Results flagged for a closer look

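The CD8SP and CD4SP subsets lay on opposite sides of DP for 66 genes, with both changes from DP and the difference between the subsets called. Of these, 28 were higher than DP in CD8SP and lower in CD4SP, and 38 the reverse. Ehd1, an endocytic recycling gene, lay at 1.43, 1.83 and 1.73 in CD8SP with a CD4SP mean of -0.62, and CD8SP minus CD4SP was 2.29 ± 0.14 (adjusted p = 6.51e-06). Snai3, a Snail family repressor gene, showed the same order, with a difference of 2.36 ± 0.20. In the other direction, St3gal2, a sialyltransferase gene, lay at -1.27, -1.01 and -1.26 in CD8SP with a CD4SP mean of 1.64, a difference of -2.82 ± 0.13. Tbc1d4, a regulator of glucose transporter traffic, and Ephx4, an epoxide hydrolase gene, had differences of -2.06 ± 0.20 and -2.49 ± 0.20. These 5 genes were chosen after their values were seen. Il17rb and Cd28, described above, had differences of -3.67 and -1.63, and Dusp1, a phosphatase gene of the MAP kinase pathway, of -1.38. The fall of Dusp1 from DP in CD8SP was not called without CD8SP replicate 1 (adjusted p = 0.0544). Several others of the 66 also lost their call against DP without that array, Tmem154 and Frmd4a among them (limma adjusted p = 0.123 and 0.147).

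Outside the gene measurements, the hybridisation control spots, which read RNA added at hybridisation and not cellular RNA, averaged 0.929 on CD8SP replicate 1 and 0.122 on CD8SP replicate 3, above the highest DP array (0.038). Their part in the differences between groups was not tested.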

How the results depend on the processing

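Of 185 named genes, 133 kept their direction and call under all 23 alternatives, 50 lost their call under at least 1, and 12 lost it without CD8SP replicate 1. Direction turned, with the call lost, for 4: Bmf to 0.0183 (probe set with the highest mean or smallest spread, and without probe sets that can cross-hybridise), Cd163l1 to -2e-04 (the last 2 of these), and Rora and Tnfrsf9 to -0.134 and -0.242 (smallest spread). Cd8a, not called, turned to 0.382 (highest mean or smallest spread). With quantile normalization, which widens the spread of the DP-centred arrays by construction, called genes numbered 1235 higher and 1525 lower than DP (524 and 424 at 2-fold), and 111 higher and 118 lower than CD4SP; members called were 10 for TCR-induced, 5 for TCR complex (lower), 2 for DNA replication, 10 for mitosis, 3 for cholesterol, 4 for NF-κB and 6 for ribosomal genes, which were 10 without cross-hybridising probe sets. The probe set with the highest mean, a choice that favours values above DP by construction, gave 2483 genes lower than DP and 885 lower than CD4SP. Fitting the compared arrays alone gave 520 higher and 828 lower than CD4SP, and array weights 1589 higher. Leaving out each array gave 2779 to 3406 genes higher than DP, 3196 to 3796 lower, 846 to 983 and 814 to 869 at 2-fold, 536 to 1364 higher and 811 to 1515 lower than CD4SP, and 7 to 12 replication genes lower. Same-numbered CD8SP and DP arrays had residual correlations of 0.156, 0.072 and 0.055. They were not treated as pairs, because the labels do not say what the replicate numbers mark. Each CD8SP array nevertheless correlated best with the DP array of its own number, a hint from the data and not the design. A replicate block called 7428 genes, 3438 higher and 3990 lower, of which 6876 were called without it. CD8SP replicate 1 correlated with the other arrays numbered 1 at 0.121 to 0.156 and with the rest at -0.162 to 0.040. A factor for the arrays numbered 1 called 7677 genes, 3567 higher and 4110 lower, of which 7037 were called without it, and its counts against CD4SP were 1228 and 1900. Signal over background was not available, so its limits could not be read.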

Other observations

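Cd79b, a B cell receptor signalling gene chosen after its values were seen, lay at -0.79, -0.11 and -0.08 in CD8SP and was not called against DP, but its CD4SP mean was -4.54, and CD8SP minus CD4SP was 4.22 ± 0.44 (adjusted p = 0.000221). The B cell markers did not follow it as a set. Over the 8 measured, the median CD8SP minus CD4SP was 0.05. Of them 2 were called higher and 0 lower, 2 and 1 without CD8SP replicate 1.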
